A study of Homo sapiens with 4 samples.

Results

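HNF4A is a nuclear receptor that sets gene expression in hepatocytes. It was mapped by ChIP-seq in HCCLM3 cells, and 6 genes of the mTOR pathway were followed here through every region that the authors listed as closest to them. The genes were RPTOR, RICTOR, TSC1, AKT1S1, EIF4EBP1 and ULK1, and the regions were found by gene name in all 3 deposited tables joined on chromosome, start and end. This gave 10 regions of 5326, and 6 genes of the 4323 that were named as closest to a region. RPTOR had 4 regions, TSC1 had 2, and RICTOR, AKT1S1, EIF4EBP1 and ULK1 had 1 each. The series holds an HNF4A library and an IgG library for each of 2 glucose levels, high and low, so 4 libraries with 1 in each group. IgG is a nonspecific antibody and stands for the background. HCCLM3 is an established human hepatocellular carcinoma line, from which lines with stable overexpression were made by lentiviral transduction, per the labels. Neither the gene carried by the vector nor the glucose concentration is named in the labels, and the culture protocol, which names a high glucose medium, is the same for all 4 libraries. The glucose level of each library therefore comes from its title alone.

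mTOR is a kinase that works in a pair of complexes. mTORC1, built on the scaffold raptor, promotes protein synthesis and restrains autophagy when amino acids, growth factors and energy are plentiful, and mTORC2, built on rictor, phosphorylates AKT and related kinases. The TSC complex and PRAS40 hold mTORC1 back, AMPK acts against mTORC1 through TSC2 and raptor when energy is low, and 4E-BP1 and ULK1 are among the direct substrates of mTORC1. In liver the pathway links feeding to growth, lipid synthesis and autophagy. The series asked which genes HNF4A occupies under different glucose conditions, so these genes were described over IgG at each glucose level and between the levels.

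Reads per region were recovered from the deposited levels. Over the 5326 regions the high glucose libraries held 402237 (HNF4A) and 249744 (IgG) reads, and the low glucose libraries 295460 (HNF4A) and 198683 (IgG). The median region held 18 to 50 reads, depending on the library. The 10 regions held 22 to 134 HNF4A and 7 to 103 IgG reads at high glucose, and 13 to 90 HNF4A and 5 to 63 IgG reads at low glucose. Ratios compare reads after scaling for library size and are given as log2, so that 1 stands for 2-fold. The range after a ratio is its exact 95% interval, which takes each read as a separate count and covers counting error and nothing else. The libraries were amplified by PCR and carry no molecular identifiers, so copies of 1 fragment may count as separate reads and the interval may be too narrow. With 1 library per group no difference has a replicate check, and each compares libraries, not conditions. Coordinates are hg19. Where a region lies in its gene (promoter, exon or intron) was not analysed here, and being closest does not show regulation. The tables hold read levels and not transcripts, so markers of the cell type could not be checked in them.

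The scaffold gene RPTOR had 4 regions that did not look alike. Regions 3 and 4 stood well above IgG at high glucose and region 3 also at low glucose, whereas regions 1 and 2 held nearly as many IgG as HNF4A reads at high glucose. RPTOR region 1 (chromosome 17, 78518326 to 78519172, 847 bp) held 37 HNF4A and 32 IgG reads at high glucose, and 31 HNF4A and 18 IgG reads at low glucose. Its log2 ratio over IgG was 0.06 (-0.66 to 0.79) in the high and 0.76 (-0.13 to 1.68) in the low glucose pair. Both intervals included 0. RPTOR region 2 (78573060 to 78574618, 1559 bp) was the longest of the 4, and held 74 HNF4A and 58 IgG reads at high glucose and 50 HNF4A and 27 IgG reads at low glucose. The ratios were 0.21 (-0.31 to 0.73) and 0.86 (0.16 to 1.59), so that only the low glucose interval lay above 0, and centred on the median of all regions both turned below 0, at -0.58 and -0.08.

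RPTOR region 3 (78602909 to 78604029, 1121 bp) had the highest HNF4A over IgG ratio of the 10 regions at both glucose levels. It held 78 HNF4A and 12 IgG reads at high glucose, and 57 HNF4A and 5 IgG reads at low glucose. HNF4A was thus the larger in both pairs of libraries, by 5.87-fold at high glucose, or 2.55 (1.67 to 3.57) on the log2 scale, and by 11.2-fold at low glucose, or 3.48 (2.18 to 5.16). The high glucose ratio exceeded that of 94.3% of all regions and the low glucose ratio that of 98.4%. Per length, region 3 held 63.3 scaled HNF4A reads per kb at high and 50.9 at low glucose, more than in 88.8% and 89.2% of regions. Its IgG level, 10.8 and 4.54 scaled reads per kb, was among the lowest of all regions, above 3.72% of them at low glucose, so both a high HNF4A level and a low IgG level entered these ratios. In the authors' deposited tables its unadjusted p-values were 0.0255 at high and 0.00511 at low glucose, with FDR values of 0.865 and 0.82, and it was the only 1 of the 10 regions with an unadjusted p under 0.05.

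RPTOR region 4 (78640873 to 78641924, 1052 bp) differed from region 3 in its low glucose pair. It held 62 HNF4A and 12 IgG reads at high glucose, and 29 HNF4A and 15 IgG reads at low glucose. The ratio was 2.22 (1.32 to 3.25) at high glucose, higher than in 90.6% of regions, and 0.92 (-0.02 to 1.93) at low glucose, higher than in 49.1%. Per length, IgG was above only 13.4% of regions at high and 38.3% at low glucose, and HNF4A above 78.6% and 26.3%. A low IgG level thus entered the high glucose ratio here too. Regions 3 and 4 held the same 12 IgG reads at high glucose, and their ratios there differed by less than their intervals.

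**Figure D1:**
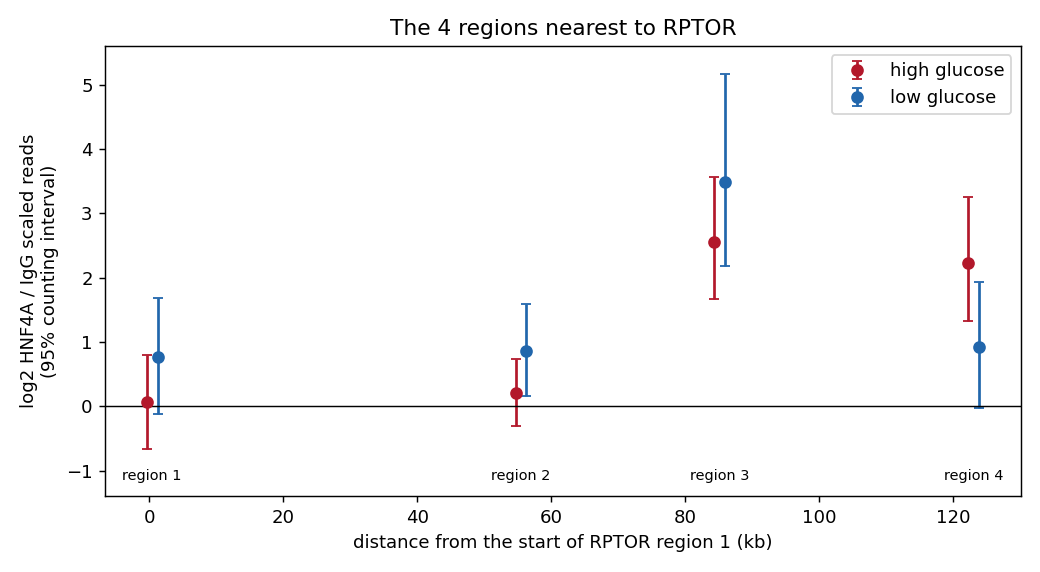
Log2 HNF4A over IgG scaled reads (vertical axis) at the 4 regions closest to RPTOR, placed by distance in kb from the start of region 1 (horizontal axis), at high and low glucose, with 95% counting intervals as bars. Regions 1 and 2 lie at 0.06 to 0.86, region 3 at 2.55 and 3.48, and region 4 at 2.22 and 0.92.

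The 4 RPTOR regions spanned 123.6 kb, with regions 2, 3 and 4 starting 54.73, 84.58 and 122.5 kb from the start of region 1. Region 3 lay 28.3 kb from region 2 and 36.8 kb from region 4, and no other listed region lay between them. The next listed region on the lower side was closest to MIR4730, 103.0 kb away, with ratios over IgG of 0.18 and 0.97, close to those of region 1. The next on the higher side was closest to LOC101928855, 223.0 kb away, at 0.53 and 0.41. The spread among the RPTOR regions was set beside that of the 28 genes with exactly 4 regions, RPTOR included. The distance from the lowest to the highest log2 ratio over IgG was 2.49 for RPTOR at high glucose, where the median gene had 1.47 and 3 genes had more. At low glucose it was 2.73 for RPTOR, against a median of 1.05, and none of the other genes had more. These ranges carry no interval, and the low glucose range rests on region 3 with its 5 IgG reads. Whether it exceeds what counting error gives was not tested. Summed over its 4 regions, RPTOR held 251 HNF4A and 114 IgG reads at high glucose and 167 HNF4A and 65 IgG reads at low glucose, with ratios of 0.99 (0.67 to 1.32) and 1.34 (0.91 to 1.77). These sums lay under the ratios of region 3.

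**Figure D2:**
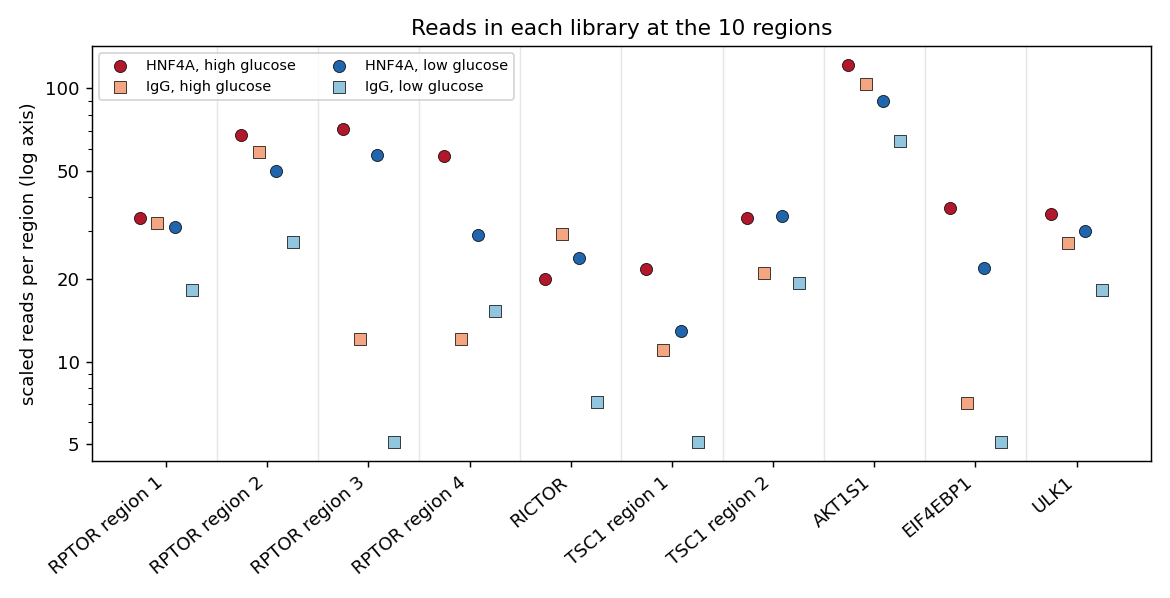
Reads scaled by relative library size (vertical log axis) at each of the 10 regions (horizontal axis) in the 4 libraries, HNF4A as circles and IgG as squares, 1 point per library. HNF4A lies above IgG of the same glucose level at every region except RICTOR at high glucose, where HNF4A is at 20.03 and IgG at 29.2 scaled reads.

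RICTOR, the scaffold gene of mTORC2, was the single region of the 10 at which IgG exceeded HNF4A, at high glucose, where 15.8% of all regions had more IgG. Its region (chromosome 5, 39074364 to 39075097, 734 bp) held 22 HNF4A and 29 IgG reads at high glucose, and 24 HNF4A and 7 IgG reads at low glucose. Before scaling, the HNF4A reads were nearly equal in both libraries, while IgG was high in the high glucose library and low in the other. Per length, HNF4A was above only 4.26% of regions at high and 48.0% at low glucose, and IgG above 82.4% and 17.9%. Both antibodies thus changed rank between the levels. The ratio over IgG was -0.54 (-1.41 to 0.30) at high glucose, higher than in only 3.44% of regions, and 1.75 (0.49 to 3.21) at low glucose, higher than in 82.2%. Against the IgG reads of both glucose levels summed, an alternative chosen after seeing the data, the ratios were 0.14 and 0.40. The authors' deposited tables gave unadjusted p-values of 0.693 and 0.269.

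TSC1 encodes hamartin, which stabilises the TSC2 subunit of the complex that switches off RHEB, the activator of mTORC1. Its regions lay 6.188 kb apart on chromosome 9. TSC1 region 1 (135812791 to 135813496, 706 bp) held few reads. The high glucose pair had 24 HNF4A and 11 IgG reads and the low glucose pair 13 HNF4A and 5 IgG reads. Its ratios were 0.98 (-0.11 to 2.16) and 1.35 (-0.23 to 3.19). At this depth neither interval excluded 0. TSC1 region 2 (135819685 to 135820591, 907 bp) held 37 HNF4A and 21 IgG reads at high glucose and 34 HNF4A and 19 IgG reads at low glucose, so that both antibodies gave nearly the same reads at both levels. The ratios were 0.67 (-0.14 to 1.52) and 0.81 (-0.04 to 1.71). Summed over the pair of regions, TSC1 stood at 0.78 (0.14 to 1.45) and 0.94 (0.20 to 1.72), and the intervals of the sums lay above 0, close to the medians of all regions.

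AKT1S1 encodes PRAS40, an inhibitory partner of mTORC1 that AKT phosphorylates. It had the longest region of the 10 (chromosome 19, 50378987 to 50381784, 2798 bp, longer than 96.5% of regions) and the most reads in every library. The high glucose pair had 134 HNF4A and 103 IgG reads and the low glucose pair 90 HNF4A and 63 IgG reads. Per length it was ordinary for HNF4A, at 43.6 and 32.2 scaled reads per kb, above 56.1% and 45.7% of regions. IgG per length was higher than in most regions, at 37.1 and 22.9 scaled reads per kb, above 78.1% and 72.3%. The ratios over IgG were 0.23 (-0.15 to 0.62) and 0.49 (0.01 to 0.98), each higher than in 25.9% of regions. Although its counts were the largest, its excess over IgG was the lowest of the 10 at low glucose.

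Of the mTORC1 substrates, EIF4EBP1 stood above IgG at both glucose levels and ULK1 did not clear its counting error at either. EIF4EBP1 encodes 4E-BP1, which blocks the cap-binding protein eIF4E until mTORC1 phosphorylates it. Its region (chromosome 8, 37924711 to 37925417, 707 bp) held 40 HNF4A and 7 IgG reads at high glucose, and 22 HNF4A and 5 IgG reads at low glucose. The ratios were 2.37 (1.19 to 3.77) and 2.11 (0.67 to 3.87), higher than in 92.4% and 89.3% of regions. IgG per length lay above only 10.4% and 9.52% of regions there, as at RPTOR region 3. The next listed region, 37.8 kb away and closest to ASH2L, held 9 HNF4A and 17 IgG reads at high glucose and 18 HNF4A and 6 IgG reads at low glucose, with ratios of -1.06 and 1.56. ULK1 encodes the kinase that starts autophagy and that mTORC1 inhibits. Its region (chromosome 12, 132380585 to 132381562, 978 bp) held 38 HNF4A and 27 IgG reads at high glucose, and 30 HNF4A and 18 IgG reads at low glucose, with ratios of 0.35 (-0.40 to 1.11) and 0.71 (-0.18 to 1.64). The neighbouring region closest to MMP17, 34.5 kb away, stood at 1.58 and 1.62.

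**Figure D3:**
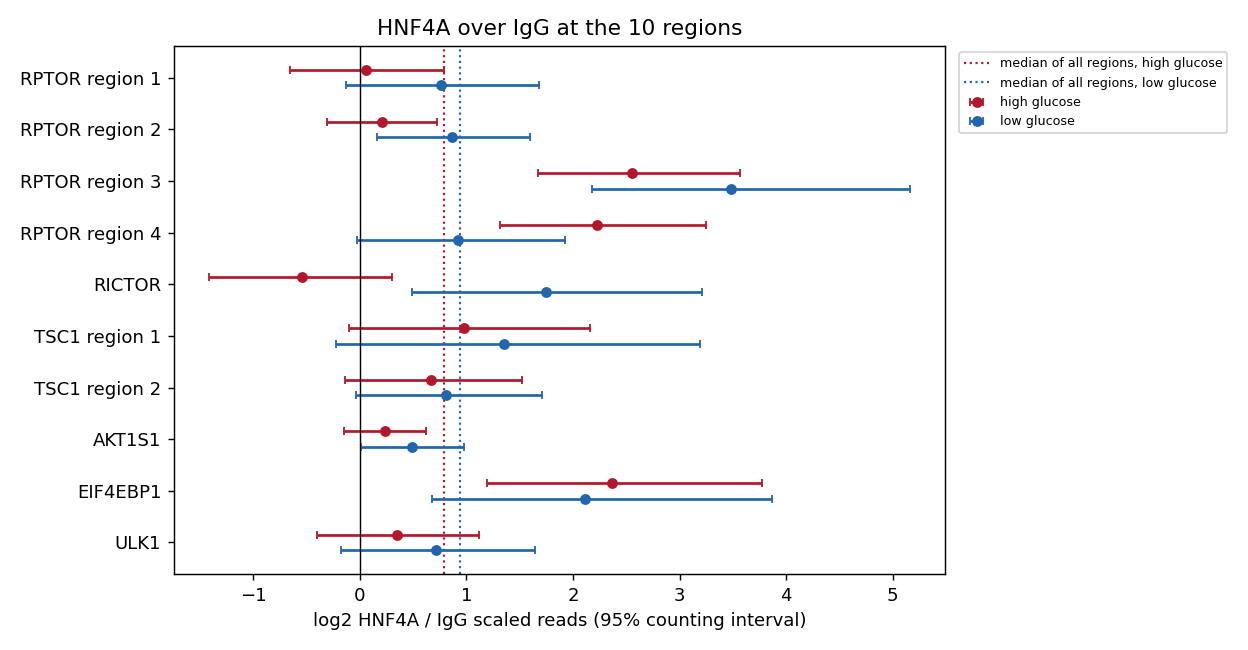
Log2 HNF4A over IgG scaled reads (horizontal axis) at each of the 10 regions (rows), at high and low glucose, with 95% counting intervals as bars and the medians of all 5326 regions, 0.79 and 0.94, as dotted lines. RPTOR region 3 and EIF4EBP1 have both intervals above 0, and the AKT1S1 points lie left of both medians.

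Counted together at high glucose, 3 of the 10 regions had at least a 2-fold excess of HNF4A over IgG, namely RPTOR regions 3 and 4 and EIF4EBP1, where 41.6% of all regions had one. The same 3 had an interval above 0, where 55.2% of all regions did. At low glucose, 4 of 10 had at least a 2-fold excess, RPTOR region 3, RICTOR, TSC1 region 1 and EIF4EBP1, against 46.8% of all regions. An interval above 0 was found for 5 of 10, RPTOR regions 2 and 3, RICTOR, AKT1S1 and EIF4EBP1, against 56.2%. The shares were thus near or under those of all regions at both levels, and RPTOR region 3 and EIF4EBP1, 2 of 10, met both criteria at both levels, against 29.1% of all regions. HNF4A was above IgG in 9 of 10 regions at high glucose, against 84.2% of all regions. At low glucose it was 10 of 10, against 91.5%. With reads scaled by the total over all regions, HNF4A was above IgG in 5 of 10 at high and 9 of 10 at low glucose. That scaling lowers the ratio of every region alike, and its share of all regions was not computed. The median of the 10 was 0.51 at high glucose, where the median of all regions was 0.79, and 0.89 at low glucose, where it was 0.94. Relative to those medians, 4 of 10 regions stood higher at each level, RPTOR region 3, TSC1 region 1 and EIF4EBP1 at both, RPTOR region 4 at high and RICTOR at low glucose. None of the 10 passed an FDR of 0.05 in the authors' deposited tables in any comparison, against 0.0% of all regions in each. RPTOR region 3 was the 1 of 10 with an unadjusted p under 0.05 above IgG in the authors' deposited tables at each glucose level, against 4.96% of all regions at high and 3.04% at low glucose. Between the glucose levels it was 0 of 10, against 4.39% higher and 0.225% lower.

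**Figure D4:**
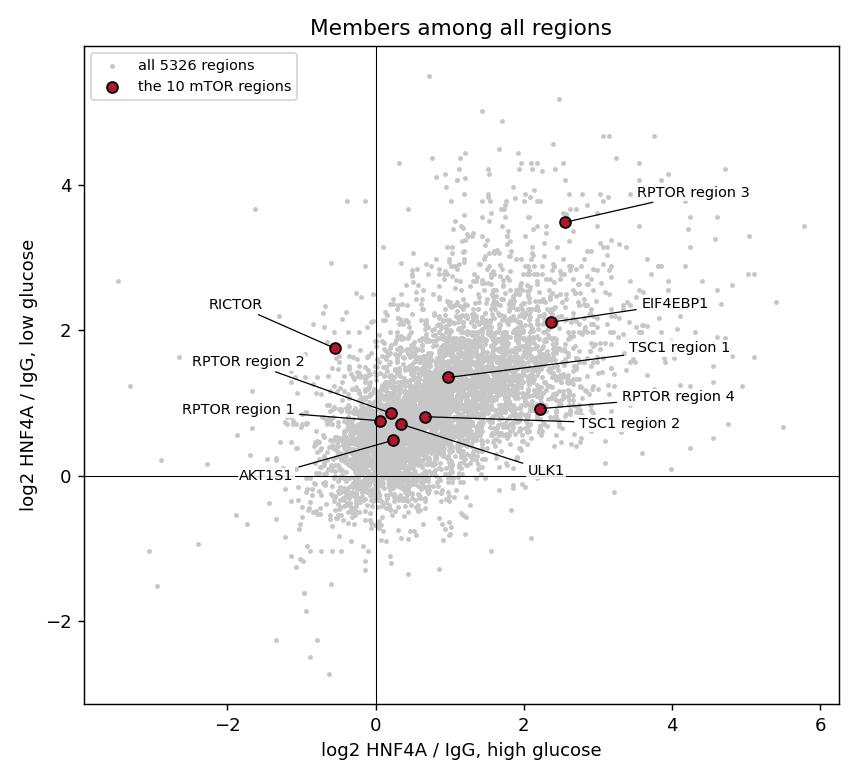
Log2 HNF4A over IgG at high glucose (horizontal axis) and at low glucose (vertical axis) for all 5326 regions in grey and the 10 regions as labelled points. RPTOR region 3 is at 2.55 and 3.48, RICTOR is at -0.54 and 1.75 to the left of the other 9, and RPTOR region 1, RPTOR region 2, AKT1S1 and ULK1 lie near the bulk of the grey points.

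Between the HNF4A libraries, no region of the 10 differed by 2-fold in either direction, where 6.78% of all regions were at least 2-fold higher and 0.713% at least 2-fold lower at high glucose. In 8 of 10 regions the high glucose library held more scaled HNF4A reads, against 81.8% of all regions, and the median of the 10 was 0.37, against 0.36 over all regions. Relative to that median 5 of 10 were higher. An interval above 0 was found for 2 of 10, against 25.8% of all regions. These were RPTOR region 4, with 62 high glucose and 29 low glucose reads and a ratio of 0.96 (0.30 to 1.65), and AKT1S1, with 134 and 90 reads, a ratio of 0.44 (0.04 to 0.84). With IgG subtracted the AKT1S1 ratio turned to -0.50, and centred on the median of all regions it was 0.08. RPTOR region 4 exceeded 92.1% of regions in this comparison and AKT1S1 58.2%. EIF4EBP1 stood at 0.73 (-0.06 to 1.55) and TSC1 region 1 at 0.75 (-0.28 to 1.85). RPTOR region 3, the strongest over IgG, stood at 0.32 (-0.19 to 0.84), and RPTOR regions 1 and 2 at 0.12 (-0.61 to 0.86) and 0.43 (-0.11 to 0.98). ULK1 stood at 0.21 (-0.52 to 0.95). TSC1 region 2, at -0.01 (-0.73 to 0.70), and RICTOR, at -0.26 (-1.16 to 0.64), were the only regions with fewer scaled reads at high glucose. The RICTOR ratio was higher than in 7.08% of regions, and -0.62 when centred on the median of all regions.

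IgG differed in the same direction at most of these regions. IgG reads were higher at high glucose in 9 of 10 regions, against 77.9% of all regions, and at least 2-fold higher in 4 of 10, against 19.4%. The 4 were RPTOR region 2 at 1.09 (0.41 to 1.80), RPTOR region 3 at 1.25 (-0.36 to 3.10), RICTOR at 2.03 (0.81 to 3.47) and TSC1 region 1 at 1.12 (-0.52 to 3.00). Centred on the median of all regions or scaled by total reads, alternatives chosen after seeing the data, RICTOR was the 1 region still at least 2-fold higher. The shares of all regions under these alternatives were not computed. RICTOR exceeded 97.6% of all regions in the IgG ratio. At AKT1S1 the IgG ratio, 0.69 (0.23 to 1.17), was larger than the HNF4A ratio, with overlapping intervals. RPTOR region 4 was the 1 region with fewer scaled IgG reads at high glucose, at -0.34 (-1.56 to 0.86), while its HNF4A ratio was above 0. At RICTOR and TSC1 region 2 the directions differed too, with IgG ratios of 2.03 and 0.13 and HNF4A ratios of -0.26 and -0.01. The intervals of both these HNF4A ratios and of the TSC1 region 2 IgG ratio included 0. The part of the IgG level in the differences between the glucose levels was not tested.

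**Figure D5:**
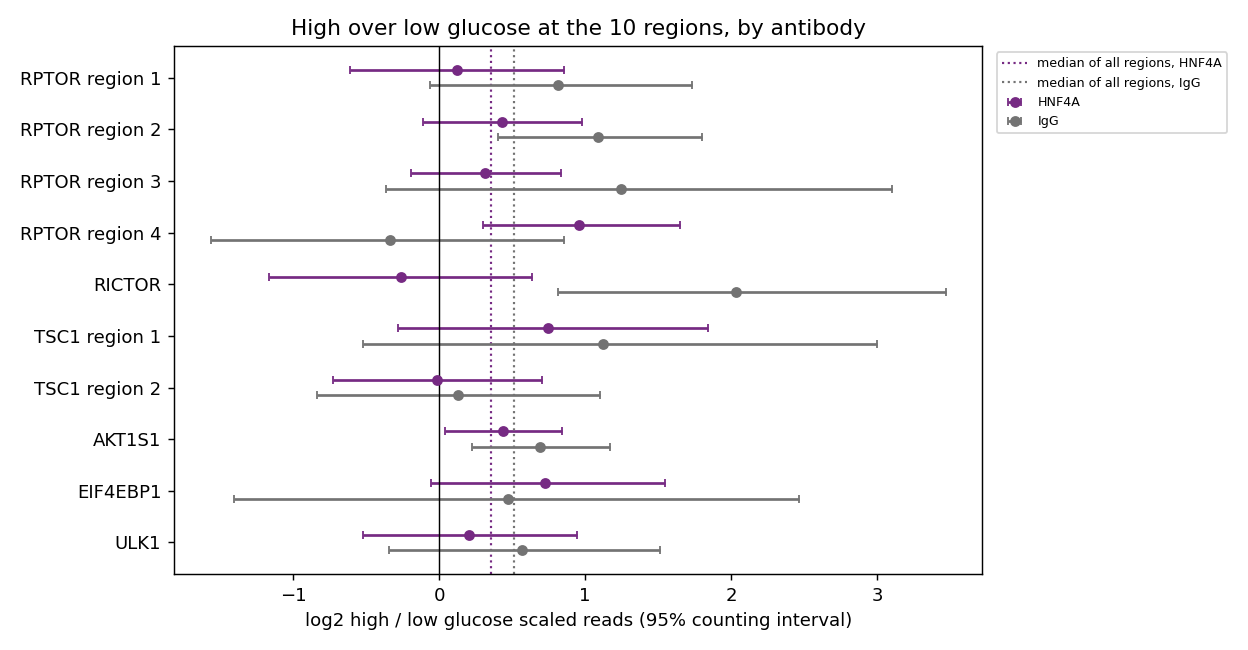
Log2 scaled reads at high over low glucose (horizontal axis) for HNF4A and IgG at each of the 10 regions (rows), with 95% counting intervals as bars and the medians of all regions, 0.36 for HNF4A and 0.51 for IgG, as dotted lines. IgG lies right of HNF4A at every region except RPTOR region 4 and EIF4EBP1, and the intervals of HNF4A and IgG at RICTOR do not overlap.

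The change of the HNF4A over IgG ratio between the glucose levels uses all 4 libraries. It was below 0 in 8 of 10 regions, against 58.3% of all regions, with a median of -0.37, against -0.15 over all regions. RICTOR had a ratio of ratios of -2.30 (-3.98 to -0.71), higher than in 1.28% of regions. It was the only 1 of the 10 with an interval that excluded 0, where 7.42% of all regions had one below 0 and 4.02% above. RPTOR region 4 was at least 2-fold higher, at 1.30 (-0.10 to 2.70), against 8.49% of all regions, and RICTOR at least 2-fold lower, against 11.9%. RPTOR region 3 stood at -0.93 (-2.86 to 0.78), on the other side of 0 from region 4, and both intervals included 0. RPTOR regions 1 and 2 stood at -0.69 (-1.88 to 0.48) and -0.66 (-1.56 to 0.23), TSC1 regions 1 and 2 at -0.37 (-2.54 to 1.64) and -0.14 (-1.37 to 1.08). AKT1S1 stood at -0.25 (-0.88 to 0.37), EIF4EBP1 at 0.26 (-1.92 to 2.31) and ULK1 at -0.36 (-1.57 to 0.83). IgG held at most 19 reads at low glucose in 8 of the 10 regions, and at this depth most of these differences could not be told from 0.

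The regions of other genes with the most similar pattern were found by Euclidean distance over the 4 log2 scaled levels, each minus the region's mean, searching the 2663 regions with a mean level no lower than the median. With 4 libraries this is a description of shape only. RPTOR region 3 was closest to regions of DNAH17, COPS8 and LENG8, at distances of 0.289, 0.492 and 0.502, and the DNAH17 region, also on chromosome 17, had ratios over IgG of 2.45 for the high and 3.14 for the low glucose pair. RICTOR was closest to MARK2, TMEM138 and ARRDC1, at 0.177, 0.284 and 0.286. The region of MARK2, a kinase that LKB1 activates, held 38 HNF4A and 54 IgG reads at high glucose and 40 HNF4A and 11 IgG reads at low glucose. As at RICTOR, its HNF4A reads before scaling were nearly equal and IgG was higher in the high glucose library. AKT1S1 was closest to STK11, PSMD4 and C12orf45, at 0.0256, 0.0405 and 0.0412. STK11 encodes LKB1, which activates AMPK. Its region stood at 0.25 and 0.47 over IgG, and another region of STK11 at -2.90 and 0.21, where the high glucose pair held 4 HNF4A and 27 IgG reads. EIF4EBP1 was closest to LIMA1, LINC00511 and FOXL1, ULK1 to LRP6, FAM102A and MTDH, and TSC1 region 2 to LRP12, TGFB2-OT1 and MBP.

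The rest of the pathway was taken from a list of 91 other genes, of which 27 were closest to a region, 34 regions in all. Each gene is represented by its region with the most scaled HNF4A reads, a choice that matters for the 7 genes with more than 1 region. HNF4A was at least 2-fold over IgG in 11 of 27 genes at high glucose and in 11 of 27 at low glucose, against 41.6% and 46.8% of all regions, and 9 genes were in both sets, 81.8% of each. Of all regions 31.4% were at least 2-fold over IgG at both levels, which is 75.3% of those at high and 67.0% of those at low glucose. None of the 27 was at least 2-fold below IgG at either level, against 1.05% of all regions at high and 0.488% at low glucose. The list medians were 0.80 and 0.85, against 0.79 and 0.94 over all regions. Taking every region of these genes, 15 of 34 at high and 16 of 34 at low glucose were at least 2-fold over IgG. The shares of all regions were 41.6% and 46.8%. Medians over the 34 were 0.90 and 0.92. In the authors' deposited tables none of these 27 regions had an unadjusted p under 0.05 in any comparison. The shares of all regions were 4.96% above IgG at high and 3.04% at low glucose. Between the HNF4A libraries they were 4.39% higher and 0.225% lower. Of the 34 regions of these genes 1 had a p that low, the other region of PRKCA. Its p over IgG at high glucose was 0.0352 in the authors' deposited tables. PRKCA encodes a kinase downstream of mTORC2. That region stood at 2.35 and 2.25 over IgG and at 1.08 (0.48 to 1.71) between the HNF4A libraries, whereas the region that represents the gene stood at 0.06 and 0.91 over IgG.

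Of 16 listed growth factor genes 3 had a region, each at least 2-fold over IgG at both levels, against 31.4% of all regions. A group of 3 genes is too small to be set apart from that share. PDPK1, which encodes a kinase that activates AKT, held 48 HNF4A and 8 IgG reads at high glucose and 38 HNF4A and 11 IgG reads at low glucose, with ratios of 2.44 (1.35 to 3.73) and 1.76 (0.76 to 2.88). INSR, the insulin receptor gene, stood at 1.65 (0.80 to 2.58) and 1.61 (0.54 to 2.80), and at 2.04 and 2.62 in its other region. Of 33 amino acid sensing genes 10 had a region. SEC13, a GATOR2 subunit, and SLC3A2, a subunit of the LAT1 amino acid transporter, were at least 2-fold over IgG at both levels. So was C12orf66, a KICSTOR subunit, at 1.04 (-0.04 to 2.21) on 11 IgG reads and 2.11 (0.675 to 3.87) on 5. The other SEC13 region stood at 0.90 (-0.004 to 1.86) and 1.37 (0.33 to 2.52). LAMTOR1, the Ragulator anchor of mTORC1 at the lysosome, stood at 0.29 (-0.45 to 1.05) and 1.41 (0.50 to 2.41). FNIP1, ITFG2, KPTN, MIOS, SEH1L and LAMTOR4 were under 2-fold at both levels, the last at -0.11 and 0.52. Of all regions 31.4% were at least 2-fold over IgG at both. None of the 4 listed TSC and RHEB genes had a region.

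Of the other subunits and partners of the complexes, DEPTOR and TELO2 had a region. TELO2, which helps assemble mTOR, held 50 HNF4A and 62 IgG reads at high glucose and 41 HNF4A and 9 IgG reads at low glucose. Its ratio over IgG was -0.46 (-1.02 to 0.10) for the high and 2.16 (1.099 to 3.39) for the low glucose pair, and IgG was 2.77 (1.75 to 3.96) at high over low glucose, the pattern seen at RICTOR. DEPTOR, an inhibitor of mTOR, stood at -0.07 (-0.77 to 0.64) and 0.85 (-0.23 to 1.997), with IgG at 1.53 (0.55 to 2.61) between the levels. Among autophagy genes RB1CC1, a partner of ULK1 in its complex, stood at 1.498 (0.66 to 2.41) and 1.45 (0.54 to 2.45), and at 0.42 and 0.49 in its other region, while ATG13, another partner, stood at -0.18 (-0.80 to 0.44) and -0.23 (-1.03 to 0.57).

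Between the HNF4A libraries, 3 of the 27 genes were at least 2-fold higher at high glucose, against 6.78% of all regions. These were EIF4EBP3 at 1.09 (0.37 to 1.84), FNIP1 at 1.05 (0.44 to 1.69) and SEC13 at 1.04 (0.31 to 1.82). IgG at the same regions stood at -0.14 (-1.02 to 0.74), 0.68 (-0.09 to 1.48) and 0.40 (-0.97 to 1.83). The HNF4A over IgG ratio changed by 0.36 (-0.66 to 1.38) at FNIP1 and 0.64 (-0.99 to 2.23) at SEC13, and both intervals included 0. The other SEC13 region stood at 0.05 (-0.71 to 0.82). EIF4EBP3 is a paralogue of EIF4EBP1, and FNIP1 encodes a partner of folliculin. None was at least 2-fold lower. The list median was 0.54, against 0.36 over all regions. The HNF4A over IgG ratio was at least 2-fold higher at high than at low glucose for EIF4EBP3, at 1.22 (0.06 to 2.39), and SREBF1, the SREBP-1 lipogenic factor gene, at 1.65 (0.20 to 3.13), against 8.49% of all regions. The other SREBF1 region, with 4 and 2 IgG reads, stood at -0.45 (-4.02 to 2.49). The change was at least 2-fold lower for TELO2, LAMTOR1 and C12orf66, against 11.9% of all regions, and the interval excluded 0 for TELO2, at -2.62 (-3.96 to -1.38), but not for LAMTOR1 or C12orf66. It also lay below 0 for MAF1, a repressor of RNA polymerase III, at -0.75 (-1.33 to -0.17), and for PRKCA, at -0.85 (-1.68 to -0.03). The other PRKCA region stood at 0.10 (-1.58 to 1.65). Of all regions 7.42% had an interval below 0 and 4.02% above. The median of the list was 0.04, and -0.09 over all 34 regions of these genes, against -0.15 over all regions.

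A pair of HNF4 motifs, CAAAGTCCA and CAAAGGTCA, was searched on both strands of RefSeq promoters (GRCh38.p14, 250 bases before to 50 after the start). Promoters of RPTOR, RICTOR, TSC1 and ULK1 were in that table, and 0 of 4 held either motif, against 0.384% and 0.407% of 35116 promoters. At shares this low no match among 4 would be the usual outcome, and the promoters were not placed against the hg19 regions.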

How the data were processed

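ChIP-seq with HNF4A and IgG antibodies was done in HCCLM3 cells at high and low glucose, 1 library per group, without replicates. Reads were processed on hg19 with HOMER, DiffBind, MACS, Bowtie 1.1.2 and bcl2fastq, per the submitters' processing notes, which state no settings. The 3 tables that the authors deposited hold the same 5326 regions. Per the file headers, they hold log2 levels, a log2 fold and a p-value with its FDR. Without the log, 100% of the levels were whole multiples of 1 step per library within 0.01, which gave the reads and relative library sizes of 1.1 (HNF4A, high), 0.993 (IgG, high), 1 (HNF4A, low) and 0.982 (IgG, low). The choice of regions is not described, and an excess over IgG may be partly built in by that choice. Starts, counted from 0 in the files, are printed from 1.

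Log2 ratios with Clopper-Pearson intervals and ratios of ratios with exact conditional intervals (Wald above 1500 reads per region, for the background shares) were computed in Python 3.11.15 with SciPy 1.17.1 and checked on simulated reads. No test of conditions was made. A difference of 2-fold was the size counted, beside its share of all regions. Every region of the 6 genes is named. Pathway genes may be named, by their region with the most HNF4A reads. Other regions of PRKCA, SREBF1, INSR, RB1CC1, SEC13 and STK11 were added after their values were seen. Similar regions are the 3 nearest per gene. The members and lists were chosen with earlier results of these data known. In 20 regions, none of a member, tables differ in the closest gene, and 33 have none. The values of 1 pathway gene are not reported here.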

Additional observations from a re-analysis of the deposited data

Results flagged for a closer look

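The RICTOR region drew attention because HNF4A lay below IgG at high glucose, at -0.54 (-1.41 to 0.30), and above it at low glucose, at 1.75 (0.49 to 3.21), a difference of -2.30 (-3.98 to -0.71) on the log2 scale. With 1 library per group the difference between the conditions was not tested, and the interval covers counting error only. The HNF4A reads were 22 and 24 and the IgG reads 29 and 7, and with the IgG reads of both levels summed the ratios were 0.14 and 0.40. The part of the IgG libraries in this difference was not tested.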

How the results depend on the processing

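The count of regions at least 2-fold over IgG at high glucose, 3 of 10, became 1 of 6 with reads summed per gene and 4 of 10 with the IgG reads of both levels summed, an alternative chosen after seeing the data. At low glucose, 4 of 10 became 2 when centred on the median of all regions. Scaling by total reads lowered every log2 ratio over IgG by about the same amount, -0.54 at high and -0.55 at low glucose, and left 5 of 10 and 9 of 10 regions above 0. Between the HNF4A libraries, 8 of 10 regions were higher, against 5 when centred, 5 of 6 with reads summed per gene and 4 of 9 with IgG subtracted, where 1 region, RPTOR region 4, was at least 2-fold higher in place of 0. RICTOR has no subtracted value, since IgG exceeded HNF4A. For the ratio of ratios, 2 of 10 regions were higher, against 1 of 6 with reads summed per gene and 4 of 10 as a difference of reads, and 1 at least 2-fold higher became 0 with reads summed per gene. Of the 27 other pathway genes, 11 and 11 at least 2-fold over IgG became 4 and 2 when centred and 6 and 6 when scaled by total reads, and 3 higher between HNF4A libraries became 0 under both. IgG at least 2-fold higher at high glucose, 4 of 10, became 1 both when centred and when scaled by total reads, chosen after seeing the data. Centring and scaling by total reads shift the log2 ratios of all regions alike. Shares of all regions under the alternative settings were not computed, so these recounts have no background to be set beside. With IgG subtracted, RPTOR regions 1 and 2, AKT1S1 and ULK1 turned below 0 between the HNF4A libraries, at -3.13, -1.33, -0.50 and -0.66. Adding 0.5 reads moved none of the 10 regions' values outside its interval. A minimum of 20 reads removed TSC1 region 1 at low glucose, so that 4 of 10 became 3 of 9, and removed no other of the 10. No paired analysis was possible because each group has 1 library. Leaving out a library was not possible for the same reason.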
